A study of Mus musculus with 25 samples.

Results

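The genes described are 35 genes of DNA replication and S phase, chosen by symbol from the 23940 gene symbols of an expression table of YUMM1.7 melanomas. By role they are 10 genes of origin licensing, 4 of helicase activation, 4 of the replicative polymerases and primase, 5 of the sliding clamp, its loader and single-strand binding, 2 of Okazaki fragment maturation, 4 of deoxynucleotide synthesis, 4 E2F transcription factors and 2 of maintenance DNA methylation. All 35 symbols were in the table under the same name. YUMM1.7 is a mouse melanoma line with mutant Braf, and its tumors were grown in C57BL/6 mice, an inbred strain with an intact immune system.

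The table holds 25 tumor biopsies in 7 groups. Batch 1 has 18 tumors: untreated tumors taken before the BRAF inhibitor (Veh, n = 4), tumors regressing on it (Reg, n = 4), residual or cytostatic tumors still on it (Res, n = 5) and tumors resistant to it (Prog, n = 5). Batch 2 has 7 tumors: resistant tumors under the inhibitor plus anti-PD-L2 antibody (aPDL2_large, n = 2), residual tumors on that combination (aPDL2_small, n = 2), and tumors resistant to the inhibitor alone (Prog_b2, n = 3). For the inhibitor, the sources used here give no name, dose or day of sampling. All groups come from 1 cell line, and nothing in the labels says whether the tumors of a group grew in separate mice, so p-values measure the spread between these tumors only.

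Before S phase, the origin recognition complex, Cdc6 and Cdt1 load the Mcm2 to Mcm7 ring onto DNA, a step called licensing. At the start of S phase Cdc45 and the GINS complex join that ring to form the active helicase, and the polymerases, clamp and ligase then copy both strands. Most of these genes are transcribed in a wave at the entry to S phase, when E2F factors are released from the retinoblastoma protein, and their RNA is low in cells that have left the cycle. E2f1 and E2f2 are activators in that family, and E2f7 and E2f8 are atypical members that repress E2F targets later in the cycle.

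Promoter sequences were taken from RefSeq windows of GRCm38.p6 that run from 250 bases before to 50 bases after each annotated start, and 31 of the 35 genes had an entry, with 39 promoters in all. The E2F motif was searched on both strands as TTTCCCGC, TTTCGCGC, TTTGCCGC or TTTGGCGC, and it stood in 15 of the 39 promoters (38.5%), against 744 of all 32851 promoters (2.26%). By gene it stood at 15 of 31 (48.4%), against 2.61% of all genes with an entry. In the bases before the start alone it stood in 10 of the 39 promoters (25.6%), against 1.86% of all. A CHR element (TTTGAA or TTCGAA, either strand), known from promoters of genes expressed in G2 and mitosis, was found in 20.5% of the 39 promoters and in 19.2% of all. The CCAAT box, searched on both strands, was found in 64.1% and 37.4%. A match is a description of these letters, not of binding.

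The following windows show where the motif lies, 1 member per role, for the member with the largest log2 fall in residual tumors among those whose motif lies before the start. Each is written 5′ to 3′ on the strand of the gene and ends at the base before the annotated start, and capitals mark the E2F motif. In Mcm5, 2 motifs on opposite strands overlap within the capitals. The windows are Uhrf1 at chr17:56304103-56304312 on the forward strand, Mcm5 at chr8:75109331-75109508 on the forward strand, E2f7 at chr10:110745216-110745438 on the forward strand, Pola1 at chrX:93632156-93632318 on the reverse strand and Rfc3 at chr5:151651209-151651243 on the reverse strand.
Uhrf1: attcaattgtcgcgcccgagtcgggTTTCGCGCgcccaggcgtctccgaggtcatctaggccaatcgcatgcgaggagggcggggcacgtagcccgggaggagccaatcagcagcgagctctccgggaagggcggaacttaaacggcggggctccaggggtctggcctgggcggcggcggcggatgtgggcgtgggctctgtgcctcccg
Mcm5: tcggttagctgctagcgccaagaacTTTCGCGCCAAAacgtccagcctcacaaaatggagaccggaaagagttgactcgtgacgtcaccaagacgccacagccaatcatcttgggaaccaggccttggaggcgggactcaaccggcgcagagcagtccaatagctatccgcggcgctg
E2f7: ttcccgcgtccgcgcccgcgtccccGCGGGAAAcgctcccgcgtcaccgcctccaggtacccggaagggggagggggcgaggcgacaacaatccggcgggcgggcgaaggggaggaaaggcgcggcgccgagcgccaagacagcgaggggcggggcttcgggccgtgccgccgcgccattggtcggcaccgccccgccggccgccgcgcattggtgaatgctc
Pola1: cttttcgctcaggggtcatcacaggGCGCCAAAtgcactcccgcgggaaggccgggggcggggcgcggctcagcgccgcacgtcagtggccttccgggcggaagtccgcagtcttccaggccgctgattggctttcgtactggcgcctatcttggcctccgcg
Rfc3: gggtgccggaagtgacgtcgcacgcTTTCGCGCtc
The motif did not separate members by the size of their change. The median log2 change of residual against untreated tumors was -1.71 in the 15 members with the motif anywhere in the window and -1.71 in the 16 without it. Uhrf1, Mcm5 and Mcm6, which have the motif, and E2f8 and Tk1, which lack an exact match, were among those that fell furthest. E2f2, which has the motif, did not pass the test there.

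Values are FPKM, which scale fragments by transcript length and by library, so levels can be compared between genes. The table has no counts, which leaves its depth unknown. Between 11081 and 12262 genes per library reached 1 FPKM, and the highest rank correlation between any pair of libraries was 0.981. The summed FPKM of a library was not even, from 4.96e+05 in Reg 4 to 2.07e+06 in Veh 3. In the other Veh tumors it lay between 8.17e+05 and 9.9e+05. In 9 columns (Veh 1, 2 and 4, Res 1, 3 and 5, and Prog 2, 4 and 5) about 50% of the values end in an extra digit, as a mean of a pair would. Of the melanocyte markers, Tyr, Tyrp1, Dct and Mlana were below 0.1 FPKM in 21, 23, 20 and 18 of the 25 libraries, so pigment genes do not mark these tumors. Mitf, the melanocyte lineage factor, was between 1.64 and 13.9 FPKM in every library. High keratin marked Veh 1, Veh 3 and Res 1.

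In untreated tumors the 35 genes averaged between 1.88 FPKM (Orc1) and 183 FPKM (Pcna), with a median of 22.8 FPKM. The mean of log2(FPKM + 1) over the 35 genes was 4.45 ± 0.14 in Veh, 4.21 ± 0.04 in Reg, 2.78 ± 0.15 in Res and 4.11 ± 0.15 in Prog (SD over tumors). In batch 2 it was 3.79 ± 0.15 in aPDL2_large, 3.44 ± 0.04 in aPDL2_small and 3.83 ± 0.46 in Prog_b2. The 5 residual tumors lay between 2.63 and 3.04, below all 20 other tumors, of which the lowest was aPDL2_small 2 at 3.41. As a median over the 35 genes, group means in FPKM were 83.2% (Reg), 26.5% (Res) and 75.9% (Prog) of the untreated mean. For aPDL2_large, aPDL2_small and Prog_b2 they were 58.9%, 45.3% and 62.1% of it. The untreated tumors are of batch 1, so these last values cross the batches, and group and batch cannot be told apart in them.

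**Figure D1:**
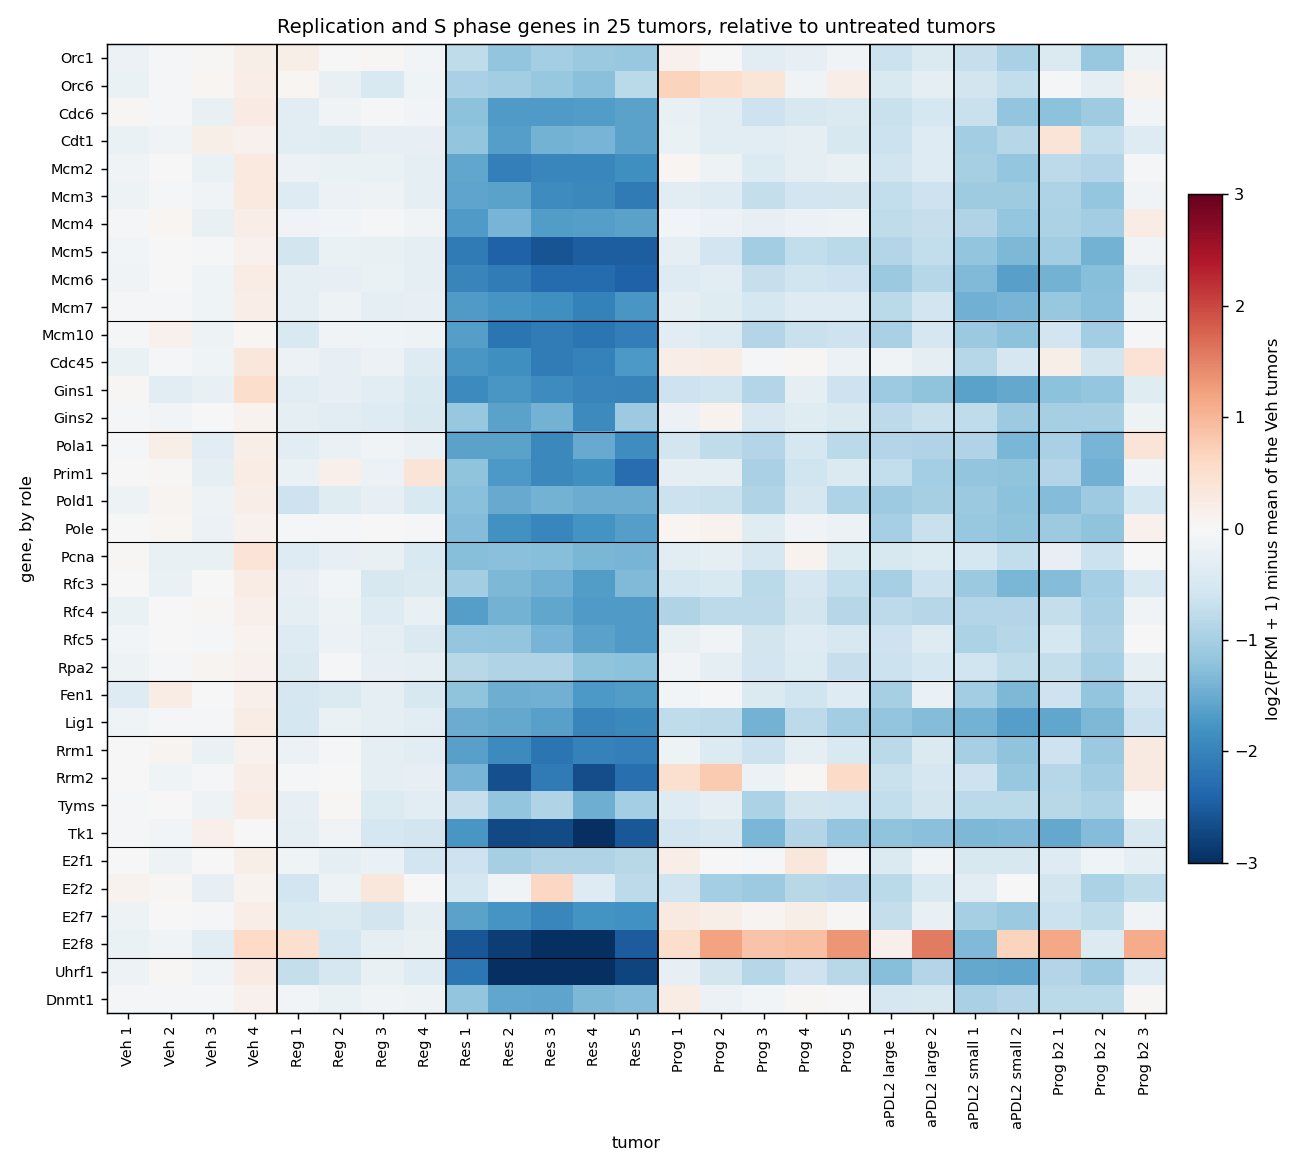
Each row is 1 of the 35 genes, ordered by role, and each column 1 tumor; color gives log2(FPKM + 1) minus the mean of the 4 Veh tumors, limited to between -3 and 3. The 5 Res columns are blue in every row except that of E2f2, which is mixed, and E2f8 is red in the Prog columns.

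**Figure D2:**
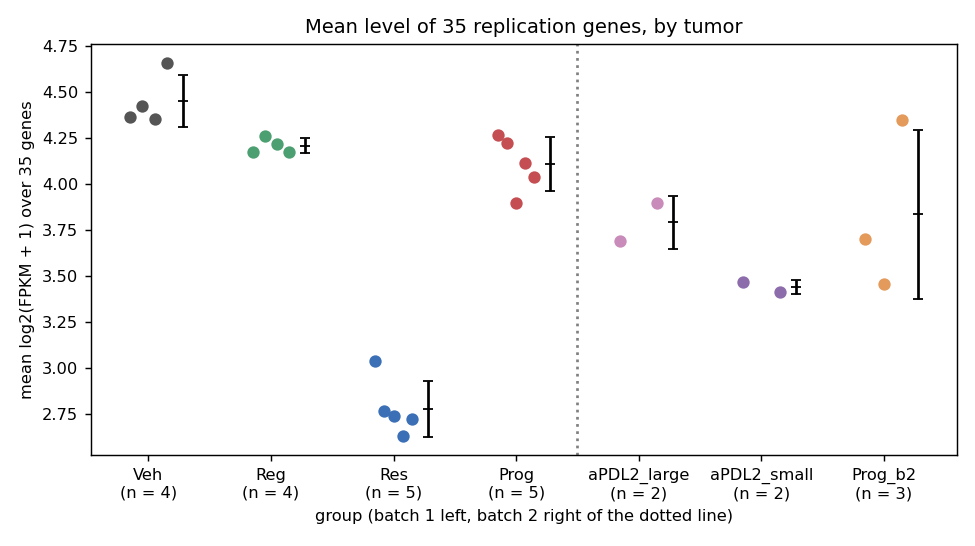
Points are tumors and the vertical axis is the mean of log2(FPKM + 1) over the 35 genes; bars give the group mean ± SD. The Res tumors lie between 2.63 and 3.04, and Prog_b2 3 at 4.35 stands above the other tumors of batch 2.

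The first comparison, of residual with untreated tumors, asks what was left of the replication program in tumors held by the inhibitor. Of the 35 genes, 34 fell and 1, E2f2, did not pass the test (limma on log2(FPKM + 1), adjusted over 12210 genes, threshold 0.05). Of all genes tested, 25.1% were called lower in this comparison. In the same 34 genes the 5 residual tumors lay wholly below the 4 untreated tumors, which 18.8% of all genes did. The median log2 change of the 35 was -1.71, with a range of -2.83 to -0.24, and the median of all genes was -0.03. In FPKM, 33 genes were below 50% of the untreated mean and 15 below 25% of it. In bulk tissue, fewer cycling tumor cells and less RNA per cell cannot be told apart.

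All 10 licensing genes fell in residual tumors, with a median log2 change of -1.71. Mcm5, a subunit of the Mcm2 to Mcm7 ring, fell furthest of them. Its level was 6.96, 5.43, 4.72, 5.26 and 5.26 FPKM in the Res tumors, against 31.6, 33.8, 32.2 and 37.0 FPKM in the Veh tumors. All residual tumors were low and close together, and the groups were far apart (log2 change -2.41 ± 0.13, SE, adjusted p = 3.1e-09). Orc1, the largest subunit of the origin recognition complex, was the least abundant of the 35 genes in Res and in Veh. It stood at 0.693, 0.273, 0.426, 0.327 and 0.303 FPKM in Res, against 1.53, 1.80, 1.96 and 2.24 FPKM in Veh. Res 1 was the highest of the residual tumors, and the groups did not overlap. Its log2 change of -1.04 ± 0.12 understates the fall, since 1 was added to each value; the Res mean was 21.5% of the Veh mean. Orc6, a further subunit of that complex, fell by 1.04 as well but kept 46.3% of its untreated level.

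The other ring subunits fell together. Mcm6 averaged 12.1 ± 1.66 FPKM in Res and 60.1 ± 6.89 FPKM in Veh (SD, n = 5 and 4), a log2 change of -2.23 ± 0.10 with an adjusted p of 7.66e-10. The changes of Mcm2, Mcm3, Mcm4 and Mcm7 were -1.87, -1.82, -1.60 and -1.82. Cdc6 and Cdt1, which load the ring, fell by 1.58 and 1.46 on the log2 scale.

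The 4 genes of helicase activation fell by a median of 1.90 on the log2 scale. Mcm10, which helps to start the loaded helicase, stood at 1.37, 0.653, 0.746, 0.648 and 0.772 FPKM in Res, against 6.27, 7.18, 5.78 and 6.86 FPKM in Veh. Res 1 was again the highest residual tumor, far below the lowest untreated one (log2 change -2.04 ± 0.13, adjusted p = 7.37e-09). Gins2, a subunit of the GINS complex, changed least in this role. It stood at 10.7, 7.37, 8.61, 5.83 and 10.97 FPKM in Res, against 24.0, 23.1, 24.7 and 26.7 FPKM in Veh. The residual tumors spread widely, but none reached an untreated one (log2 change -1.43 ± 0.15, adjusted p = 1.42e-06). Cdc45 fell by 1.89 and Gins1, also of GINS, by 1.90.

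Of the polymerase genes, Prim1, the catalytic subunit of primase, had the most negative change on the log2 scale with 1 added. Its values were 6.89, 4.52, 3.76, 4.10 and 2.77 FPKM in Res, against 17.3, 17.8, 14.2 and 20.4 FPKM in Veh. Both groups were spread, Res the more so, and they did not overlap (log2 change -1.80 ± 0.19, adjusted p = 2.31e-06). Pold1, the catalytic subunit of polymerase delta, stood at 7.67, 6.29, 6.76, 6.31 and 6.35 FPKM in Res, against 17.6, 21.0, 17.6 and 22.9 FPKM in Veh (log2 change -1.43 ± 0.11, adjusted p = 3.78e-08). The residual tumors agreed closely. Pola1 of polymerase alpha and Pole of polymerase epsilon each changed by -1.71. By group means Pole and Pola1 fell further than Prim1, to 18.1% and 23.8% of the Veh mean against 25.3% for Prim1.

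The 5 clamp, loader and single-strand binding genes all fell, with a median log2 change of -1.37. Rfc4, a subunit of the clamp loader, had 4.36, 5.30, 4.75, 4.18 and 4.17 FPKM in Res, against 13.8, 15.8, 16.3 and 17.9 FPKM in Veh (log2 change -1.61 ± 0.09, adjusted p = 4.26e-09). Rpa2, a subunit of the protein that coats single-stranded DNA, had 9.71, 9.08, 9.17, 7.20 and 7.06 FPKM in Res, against 16.1, 17.2, 19.0 and 19.7 FPKM in Veh. It retained 46.9% of the untreated level, and its tumors did not overlap between the groups (log2 change -1.01 ± 0.12, adjusted p = 1.03e-05). Pcna, the sliding clamp and the most abundant of the 35, averaged 71.8 ± 3.45 FPKM in Res and 183 ± 39.5 FPKM in Veh, and Rfc3 and Rfc5 of the loader changed by -1.37 and -1.41. Lig1, the ligase that joins Okazaki fragments, stood at 10.6, 10.1, 9.48, 7.23 and 7.503 FPKM in Res, against 28.5, 30.7, 30.0 and 36.9 FPKM in Veh (log2 change -1.71 ± 0.14, adjusted p = 1e-07). Fen1, the flap nuclease that acts before it, stood at 11.5, 9.57, 9.69, 7.81 and 8.04 FPKM in Res, against 21.2, 32.9, 27.9 and 31.4 FPKM in Veh (log2 change -1.50 ± 0.14, adjusted p = 5.21e-07). Neither gene overlapped between the groups, and in Fen1 Veh 1 was the lowest untreated tumor.

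The nucleotide synthesis genes held both a very large and a small fall. Tk1, the thymidine kinase of S phase, stood at 14.6, 7.05, 7.16, 5.38 and 7.96 FPKM in Res, against 49.95, 48.4, 56.9 and 50.6 FPKM in Veh (log2 change -2.54 ± 0.22, adjusted p = 1.81e-07). Res 1 stood apart from the other residual tumors, and still lay far below every untreated tumor. Tyms, thymidylate synthase, had 7.11, 4.71, 5.99, 3.72 and 5.40 FPKM in Res, against 11.7, 11.8, 10.6 and 14.2 FPKM in Veh (log2 change -1.05 ± 0.16, adjusted p = 6.66e-05). The subunits of ribonucleotide reductase fell by 1.96 (Rrm1, the large subunit) and 2.21 (Rrm2, the small subunit of S phase).

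E2f8 stood at 2.90, 2.26, 1.74, 1.89 and 3.06 FPKM in Res, against 19.2, 20.5, 17.5 and 34.1 FPKM in Veh, so that the Res mean was 10.4% of the Veh mean (log2 change -2.79 ± 0.22, adjusted p = 6.5e-08). E2f7 averaged 0.567 ± 0.141 FPKM in Res and 4.41 ± 0.547 FPKM in Veh, which is 12.8% of the untreated level (log2 change -1.79 ± 0.10). E2f1 changed by -0.85 ± 0.11 and kept 53.6%. E2f2 stood at 1.35, 2.13, 4.15, 1.56 and 0.95 FPKM in Res, against 2.63, 2.43, 1.83 and 2.64 FPKM in Veh. Its groups overlapped, Res 3 being the highest of the 25 tumors, and the log2 change of -0.24 ± 0.23 did not pass (adjusted p = 0.42). The differences between E2F genes were not themselves tested.

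Of the maintenance methylation genes, Uhrf1, which brings Dnmt1 to newly copied DNA, had the most negative log2 change of the 35. It stood at 9.14, 4.44, 4.28, 4.27 and 5.72 FPKM in Res, against 39.5, 45.0, 41.0 and 52.3 FPKM in Veh (log2 change -2.83 ± 0.18, adjusted p = 7.63e-09). Dnmt1, the methyltransferase itself, had 15.5, 11.8, 11.7, 13.9 and 14.2 FPKM in Res, against 35.6, 35.7, 34.9 and 40.4 FPKM in Veh (log2 change -1.39 ± 0.09, adjusted p = 1.08e-08). Neither overlapped between the groups. Across the 35 genes Res 1 was the highest residual tumor in 25, and Veh 4 the highest untreated tumor in 30.

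Markers of other cell types were higher in the same residual tumors. Of 9 macrophage markers 8 rose, and their summed FPKM ranged from 358 to 735 in Res and from 57.1 to 246 in Veh. All 7 neutrophil markers rose (562 to 2022 in Res, 20.8 to 272 in Veh), as did 5 of 6 fibroblast markers (2822 to 4989 in Res, 1420 to 2023 in Veh), 6 of 6 endothelial, 6 of 6 skeletal muscle, 4 of 5 erythroid and 1 of 6 T cell markers. Of the 4 melanocyte markers expressed highly enough to be tested, 4 rose, and of 5 keratinocyte markers none did. The part of these cells in the fall of the 35 genes was not tested. Without Veh 1, Veh 3 and Res 1, the libraries with high keratin, 34 members were called.

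Most other genes of the same pathways fell too. Of 42 further replication genes 40 were called lower in Res than in Veh and none higher, with a median log2 change of -0.99; Mcm9 and Pold4 were not called. The smallest adjusted p-values among them belonged to Pole2 (log2 change -1.62), a subunit of polymerase epsilon, Chaf1a (-1.76), which deposits histones behind the fork, and Dbf4 (-1.79), the activator of the Cdc7 kinase. Of 10 further nucleotide genes 5 were lower, among them Shmt1 (-1.77) and the dUTPase Dut (-1.79), and 1 was higher, the mitochondrial thymidine kinase Tk2 (0.64). Of 14 other E2F, retinoblastoma family and cyclin genes 10 were lower, led by cyclin A2 (Ccna2, -2.76), cyclin E2 (Ccne2, -1.71) and Rbl1 (-1.49).

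Whether the fall was already present while tumors shrank was asked by setting regressing against untreated tumors. None of the 35 genes passed the test, against 0.0164% of all genes called lower and 0 called higher. The lowest adjusted p of the 35 was 0.357, for E2f7. At an unadjusted p below 0.05 there were 16 of the 35, against 11.2% of all genes. The log2 changes were negative in 33 of 35, with a median of -0.25 (median of all genes 0.02), and in 12 of 35 the regressing tumors lay wholly below the untreated ones, against 3.53% of all genes.

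Uhrf1 had the most negative log2 change of the 35 in this comparison. It stood at 26.5, 30.7, 37.5 and 33.8 FPKM in Reg, against 39.5, 45.0, 41.0 and 52.3 FPKM in Veh. The groups did not overlap (log2 change -0.46 ± 0.19, adjusted p = 0.419). E2f7 had 2.91, 2.98, 2.66 and 3.47 FPKM in Reg, against 3.83, 4.37, 4.30 and 5.15 FPKM in Veh (log2 change -0.43 ± 0.10). Again no regressing tumor reached an untreated one. Prim1 and Orc1 had the only positive changes, both 0.04.

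Residual tumors were then set against regressing tumors, both on the inhibitor. In this comparison 34 of the 35 genes fell, against 22.5% of all genes, and E2f2 again did not pass (log2 change -0.14, adjusted p = 0.677). The median log2 change was -1.44. E2f8 had 2.90, 2.26, 1.74, 1.89 and 3.06 FPKM in Res, against 30.9, 15.1, 17.7 and 18.8 FPKM in Reg (log2 change -2.65 ± 0.22, adjusted p = 1.89e-07). Mcm5 had a log2 change of -2.10, Tk1 of -2.18 and Uhrf1 of -2.37, and the residual and regressing tumors did not overlap in any of the 34 genes, against 15.4% of all genes with such a fall.

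Resistant tumors were compared with residual tumors to ask which genes returned. All 35 genes differed: 34 rose, against 40.0% of all genes, and E2f2 fell, against 32.4%. The median log2 change was 1.30, and in 33 genes every resistant tumor lay above every residual one, against 29.9% of all genes. The exception among the risen genes was Tyms, with 9.02, 9.61, 5.75, 7.86 and 7.56 FPKM in Prog, against 7.11, 4.71, 5.99, 3.72 and 5.40 FPKM in Res. Prog 3 lay below Res 1 and Res 3 (log2 change 0.50 ± 0.15, adjusted p = 0.00623).

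E2f8 rose most on the log2 scale, with 32.4, 52.4, 40.3, 42.1 and 56.3 FPKM in Prog, all above the 1.74 to 3.06 FPKM of the Res tumors (log2 change 3.75 ± 0.21, adjusted p = 4.02e-09). Rrm2 had 52.7, 65.7, 33.3, 38.8 and 56.6 FPKM in Prog, against 13.7, 5.21, 7.89, 5.11 and 7.11 FPKM in Res (log2 change 2.55 ± 0.21, adjusted p = 1.06e-07). Uhrf1 rose by 2.22, Cdc45 and E2f7 by 1.93 each, and Mcm5 by 1.72. The smallest rises after Tyms were in Rpa2 (0.60), Pold1 (0.71), Lig1 (0.74) and Rfc3 (0.76). E2f2 stood at 1.21, 0.667, 0.587, 0.892 and 0.846 FPKM in Prog, against 1.35, 2.13, 4.15, 1.56 and 0.95 FPKM in Res (log2 change -0.64 ± 0.22, adjusted p = 0.0151), and Prog 1 overlapped the residual tumors. Of the 42 further replication genes 34 rose and none fell, with Dbf4 at 1.77, Chaf1a at 1.61 and the checkpoint adaptor Topbp1 at 1.61. Of the 14 E2F and cyclin genes 12 rose, and Rbl2 (-0.54) and Rb1 (-0.41), both of the retinoblastoma family, fell. In the same comparison 6 of 9 macrophage, 6 of 7 neutrophil, 5 of 6 fibroblast and 5 of 6 endothelial markers fell. So did 6 of 6 skeletal muscle, 6 of 6 T cell, 3 of 5 erythroid and 3 of 4 tested melanocyte markers. None of 5 keratinocyte markers did. The other endothelial marker, Cdh5, rose, with means of 23.2 FPKM in Res and 97.6 FPKM in Prog. The summed endothelial markers had a median of 107 FPKM in Res and 109 FPKM in Prog. The summed macrophage markers ranged from 98.7 to 154 FPKM in Prog and from 358 to 735 FPKM in Res, and the summed neutrophil markers from 83.8 to 537 FPKM in Prog and from 562 to 2022 FPKM in Res. The part of these cells in the rise of the 34 genes was not tested.

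Against untreated tumors, resistant tumors did not return to 1 common level. Of the 35 genes 21 were lower, against 21.1% of all genes, 1 was higher (E2f8), against 25.2%, and 13 did not pass. The median log2 change was -0.39, with a range of -0.97 to 0.96, and the median of all genes was 0.01. In 17 of the 35 the resistant tumors lay wholly below the untreated tumors, against 17.9% of all genes. In none did they lie wholly above them, against 21.1% of all genes.

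**Figure D3:**
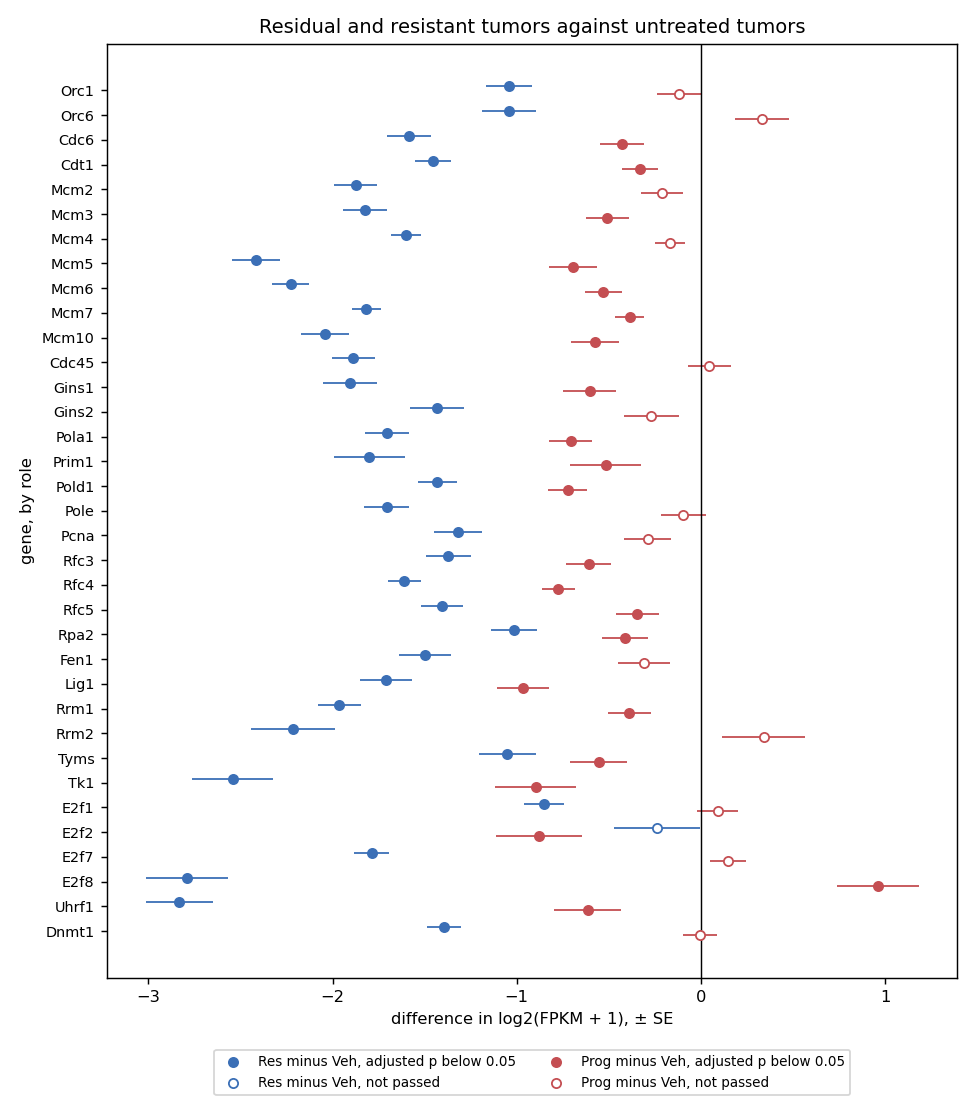
Points are differences in log2(FPKM + 1) from the Veh tumors for each of the 35 genes in Res (blue) and Prog (red), with bars of 1 SE; filled points passed the test at an adjusted p below 0.05. The Res points lie between -2.83 and -0.24, and the Prog points between -0.97 and 0.96 with E2f8 alone filled on the right.

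By role, 6 of the 10 licensing genes were lower in resistant tumors (Cdc6, Cdt1, Mcm3, Mcm5, Mcm6 and Mcm7). Mcm5 had 27.1, 22.3, 15.7, 19.8 and 18.6 FPKM in Prog, against 31.6, 33.8, 32.2 and 37.0 FPKM in Veh (log2 change -0.69 ± 0.13, adjusted p = 0.000594). The groups did not overlap, and Prog 3 was the lowest tumor. Orc6 went the other way without passing, at 36.5, 33.0, 29.6, 21.1 and 26.02 FPKM in Prog, against 19.6, 21.5, 23.5 and 26.2 FPKM in Veh (log2 change 0.33 ± 0.14, adjusted p = 0.07). Its groups overlapped through Prog 4 and Prog 5. Orc1, Mcm2 and Mcm4 did not pass, with log2 changes of -0.12, -0.21 and -0.17.

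By their calls, helicase and polymerase genes were divided in the same way, though differences between genes were not themselves tested. Mcm10 (-0.58) and Gins1 (-0.60) were lower, while Cdc45 averaged 18.3 ± 2.21 FPKM in Prog and 17.8 ± 3.39 FPKM in Veh (SD, n = 5 and 4; log2 change 0.05 ± 0.12, adjusted p = 0.77), and Gins2 did not pass (-0.27). Pola1, Prim1 and Pold1 were lower by 0.71, 0.52 and 0.72 on the log2 scale, while Pole averaged 5.00 ± 0.779 FPKM in Prog and 5.39 ± 0.571 FPKM in Veh (log2 change -0.10 ± 0.12, adjusted p = 0.541). Pold1 had 12.3, 12.1, 10.1, 13.5 and 9.89 FPKM in Prog, each below the lowest Veh tumor at 17.6 FPKM.

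Lig1, the ligase that joins Okazaki fragments, had 17.96, 17.7, 11.02, 17.6 and 14.7 FPKM in Prog, against 28.5, 30.7, 30.0 and 36.9 FPKM in Veh, and the Prog mean was 50.1% of the Veh mean (log2 change -0.97 ± 0.14, adjusted p = 8.88e-05). Tk1 had 33.97, 36.8, 19.2, 27.7 and 22.03 FPKM in Prog, against 49.95, 48.4, 56.9 and 50.6 FPKM in Veh (log2 change -0.90 ± 0.22, adjusted p = 0.00366). In both genes every resistant tumor was below every untreated one. Rfc3, Rfc4, Rfc5 and Rpa2 were lower by 0.61, 0.77, 0.34 and 0.41, and Tyms and Rrm1 by 0.56 and 0.39, while Pcna (-0.29) and Fen1 (-0.31) did not pass. Rrm2 averaged 49.4 ± 13.3 FPKM in Prog and 37.8 ± 3.84 FPKM in Veh, a difference within its spread (log2 change 0.34 ± 0.23, adjusted p = 0.228).

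Of the methylation genes Uhrf1 was lower in resistant tumors and Dnmt1 did not pass. Uhrf1 had 37.3, 30.1, 23.9, 28.5 and 24.5 FPKM in Prog, all below the 39.5 to 52.3 FPKM of the Veh tumors (log2 change -0.62 ± 0.18, adjusted p = 0.0113). Dnmt1 had 43.1, 32.1, 34.6, 37.2 and 36.6 FPKM in Prog, against 35.6, 35.7, 34.9 and 40.4 FPKM in Veh, and the means of both groups were 36.7 FPKM. The difference between the genes was not itself tested.

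E2f8 had 32.4, 52.4, 40.3, 42.1 and 56.3 FPKM in Prog, against 19.2, 20.5, 17.5 and 34.1 FPKM in Veh, and the Prog mean was 196% of the Veh mean (log2 change 0.96 ± 0.22, adjusted p = 0.00239). The groups overlapped through Prog 1 and Veh 4. E2f2 had 1.21, 0.667, 0.587, 0.892 and 0.846 FPKM in Prog, against 2.63, 2.43, 1.83 and 2.64 FPKM in Veh, which is 35.3% of the untreated level with no overlap (log2 change -0.88 ± 0.23, adjusted p = 0.006). E2f7 (0.15) and E2f1 (0.09) did not pass. Without the 3 libraries with high keratin the adjusted p of E2f8 was 0.0584, the highest of a range from 8.89e-05 over 19 settings. The calls of 16 of the 22 genes held in all 19 settings. Those of Prim1, Rfc5, Cdc6, Cdt1, Rrm1 and E2f8 were lost in some. Of the genes not called, Orc6, Mcm2, Mcm4, Pcna and Fen1 passed in 2 to 4 of the 19 settings.

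**Figure D4:**
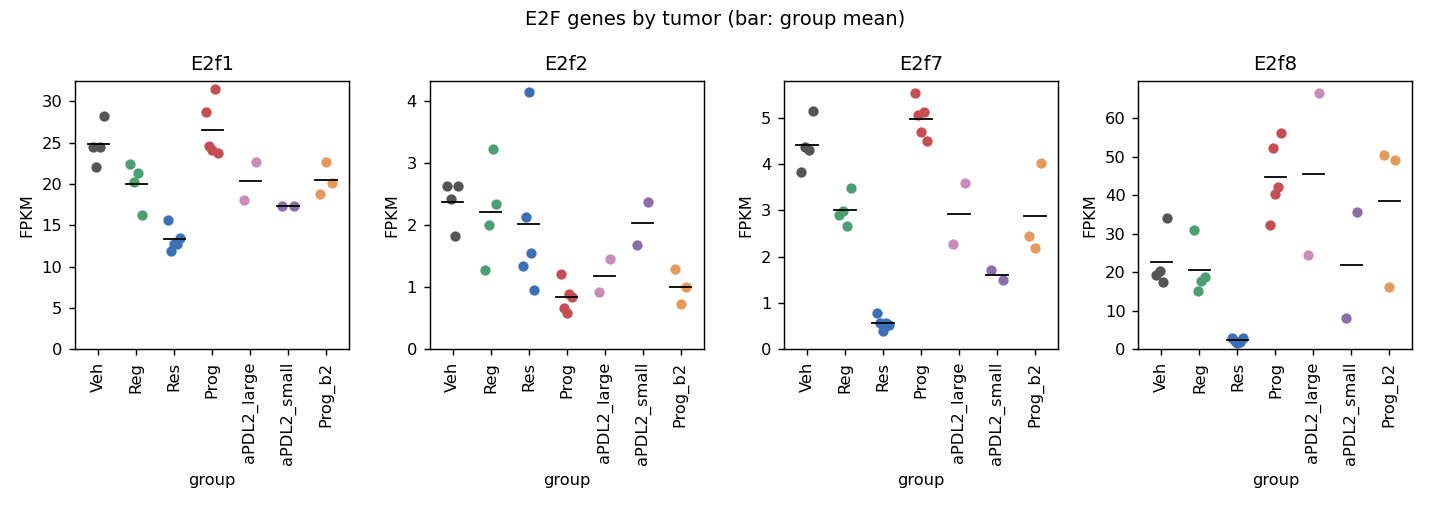
Points are tumors and bars are group means, in FPKM, for E2f1, E2f2, E2f7 and E2f8. E2f8 lies between 1.74 and 3.06 FPKM in Res and between 32.4 and 56.3 FPKM in Prog, and E2f2 is at or below 1.21 FPKM in Prog.

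The further replication genes were divided in resistant tumors as well. Of 42, 23 were lower than in Veh, with Pold2 of polymerase delta at -0.75, the single-strand binding subunit Rpa1 at -0.65 and Rnaseh2b at -0.65, and 3 were higher, Orc4 (0.86), Pold4 (0.95) and Orc2 (0.34). Of the 10 further nucleotide genes 6 were lower, among them the kinase Dguok (-0.72) and Dctd (-0.75). Of the 14 E2F, retinoblastoma family and cyclin genes, Ccna2 (-0.74) was lower and E2f5 (0.92), cyclin E1 (Ccne1, 0.74) and the phosphatase Cdc25a (0.64) were higher. Neutrophil markers were higher in Prog than in Veh in 4 of 7, with summed levels of 83.8 to 537 FPKM in Prog and 20.8 to 272 FPKM in Veh, and of 9 macrophage markers 3 were lower and 2 higher; their part was not tested.

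Against regressing tumors, which were also on the inhibitor, 9 of the 35 genes were lower in resistant tumors and 5 were higher, against 24.1% and 24.3% of all genes. Those higher were Orc6 (0.52), Cdc45 (0.29), E2f1 (0.39), E2f7 (0.58) and E2f8 (1.10), and those lower were Mcm5, Mcm6, Mcm10, Pola1, Prim1, Pold1, Rfc4, Lig1 and E2f2, with log2 changes between -0.27 and -0.78. E2f1 had 28.6, 24.6, 24.1, 31.5 and 23.7 FPKM in Prog, against 22.4, 20.3, 21.3 and 16.2 FPKM in Reg, with no overlap (log2 change 0.39 ± 0.11, adjusted p = 0.00928). Only 6 of these 14 calls held in all 18 settings (Orc6, Rfc4, Lig1, E2f1, E2f7 and E2f8). The count of calls was 21 with library weights, 8 without Reg 2, 9 without Reg 3, Reg 4 or Prog 3, and 7 in a fit of all 25 libraries.

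In batch 2, resistant tumors under the inhibitor plus anti-PD-L2 were set against residual tumors on the same combination. Orc1 averaged below 1 FPKM there and was not tested. None of the other 34 genes passed the test in limma, as none of the 11913 genes tested did (0%), and none of the 34 had an unadjusted p below 0.05, against 7.94% of all genes. The log2 change was positive in 33 of 34, with a median of 0.36 against 0.05 over all genes, and in 28 of the 35 both large tumors lay above both small ones, against 27.1% of all genes. With 2 tumors a group, an absent call does not show that the groups were alike.

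Mcm7 had 32.5 and 38.6 FPKM in aPDL2_large, against 20.6 and 21.3 FPKM in aPDL2_small, the largest difference of the ring subunits (log2 change 0.73 ± 0.37, adjusted p = 0.694). Uhrf1 had 17.7 and 23.6 FPKM in aPDL2_large, against 14.7 and 14.4 FPKM in aPDL2_small. E2f8 had 24.4 and 66.5 FPKM in aPDL2_large, against 8.17 and 35.8 FPKM in aPDL2_small, and its tumors overlapped between the groups (log2 change 1.17 ± 0.86, adjusted p = 0.792). Tk1 hardly differed, with 21.7 and 21.1 FPKM in aPDL2_large, against 19.5 and 19.9 FPKM in aPDL2_small (log2 change 0.11 ± 0.35). E2f2 was the 1 gene lower in both large tumors, at 0.927 and 1.45 FPKM in aPDL2_large, against 1.69 and 2.38 FPKM in aPDL2_small.

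Summed macrophage markers were at 113 and 187 FPKM in the aPDL2_large tumors and at 261 and 740 FPKM in the aPDL2_small tumors. Summed fibroblast markers were at 1702 and 1732 FPKM in aPDL2_large and at 1940 and 9264 FPKM in aPDL2_small. Against these sums, Mertk (macrophage) and Lum and Pdgfra (fibroblast) had higher means in aPDL2_large. Erythroid sums were lower and keratinocyte sums higher in both large tumors. The sums of T cell, neutrophil, endothelial, melanocyte and skeletal muscle markers overlapped between the groups. The part of these cells in the levels of the 35 genes was not tested.

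Resistant tumors of batch 2 on the inhibitor alone served as the comparison for both. None of the 34 genes passed in aPDL2_small against Prog_b2 (0% of all genes), where 2 had an unadjusted p below 0.05 against 11.7% of all genes, and the median log2 change was -0.41. None passed in aPDL2_large against Prog_b2 either (0% of all genes), where none had an unadjusted p below 0.05 against 1.39% of all genes, and the median was -0.04. Without Prog_b2 3 the medians were -0.10 and 0.25. The Prog_b2 tumors differed widely among themselves. Prog_b2 3 was the highest of the 3 in 31 of the 35 genes, by more than 1.5 times over both others in 23. Pola1 had 4.71, 3.25 and 13.6 FPKM in the 3 tumors, Pole 2.00, 1.74 and 5.97 FPKM, and Cdc6 1.30, 1.57 and 4.11 FPKM. Cdt1 departed from this order, at 28.7, 12.7 and 16.3 FPKM, and E2f8 too, at 50.5, 16.3 and 49.1 FPKM.

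The difference between the contrasts of the batches was tested directly, in a fit of all 25 tumors. In 21 of the 35 genes the change of Prog against Res passed as larger than that of aPDL2_large against aPDL2_small. Of all genes 8.81% did so. None of the 35 passed as smaller, against 6.20% of all genes. The difference was positive in 34 of the 35 and -0.17 in E2f2, which did not pass. The median of this difference in log2 change was 0.93, against 0.06 over all genes. The antibody and the batch cannot be told apart here, since every tumor given the antibody is in batch 2. The largest differences were in E2f8 (2.58 ± 0.66, adjusted p = 0.0169), Rrm2 (2.26 ± 0.46, adjusted p = 0.00588), Uhrf1 (1.75 ± 0.33, adjusted p = 0.00398) and Tk1 (1.53 ± 0.40, adjusted p = 0.0189). Without aPDL2_small 2 the difference in E2f8 was 1.58 (adjusted p = 0.133) and without aPDL2_large 1 it was 1.88 (adjusted p = 0.127), and that in Tk1 did not pass in either fit (adjusted p = 0.064 and 0.0698). Cdc45, Rrm2, E2f7 and Uhrf1 passed in all 21 settings. The count of members fell to 4 without aPDL2_large 1, to 10 without aPDL2_small 1 and to 9 without aPDL2_small 2.

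**Figure D5:**
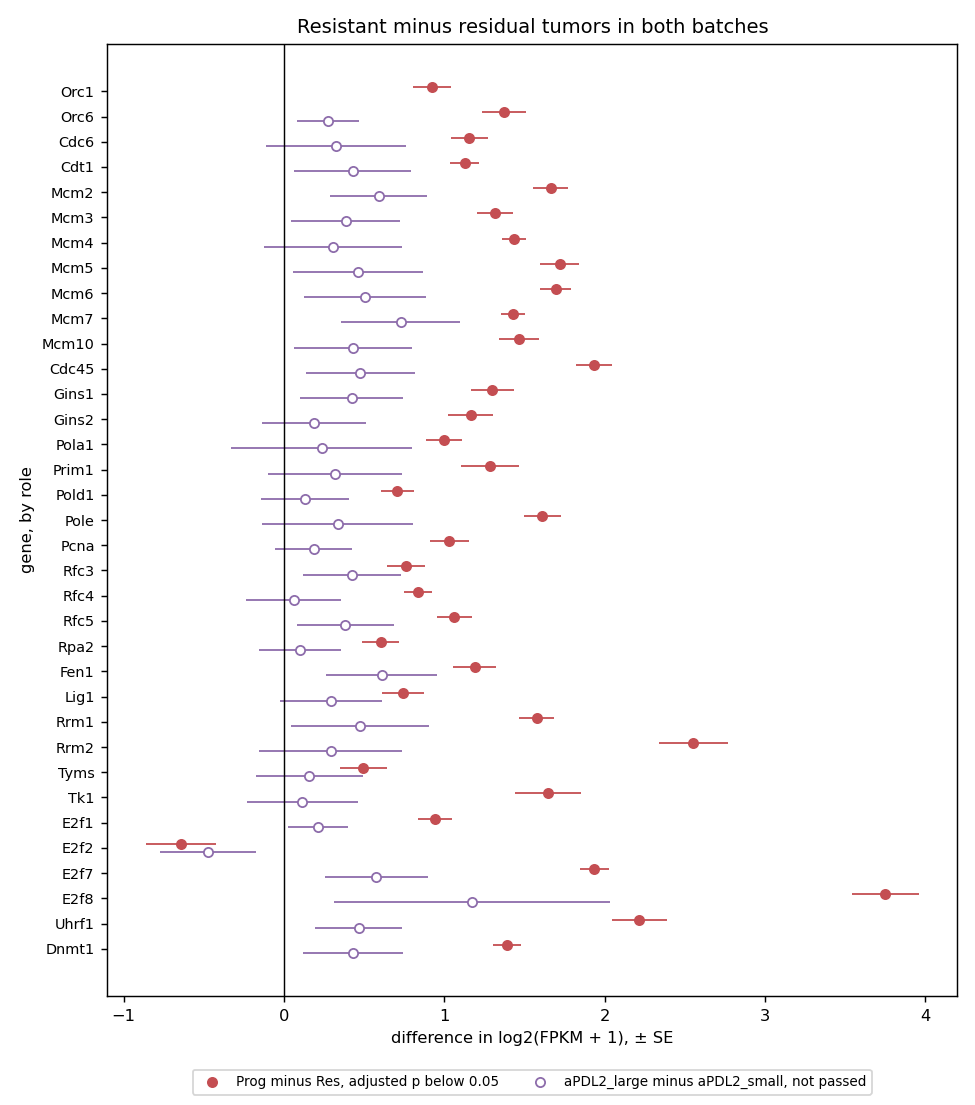
Points are differences in log2(FPKM + 1) between resistant and residual tumors for each gene, Prog minus Res in batch 1 (red) and aPDL2_large minus aPDL2_small in batch 2 (purple), with bars of 1 SE; filled points passed the test. The red points lie between -0.64 and 3.75 and the purple ones between -0.47 and 1.17, and Orc1 has no purple point.

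The smaller contrast in batch 2 went with higher levels in its residual tumors and lower levels in its resistant tumors on the antibody. The mean of log2(FPKM + 1) over the 35 genes was 3.44 in aPDL2_small and 2.78 in Res. It was 3.79 in aPDL2_large and 4.11 in Prog. Prog_b2, the resistant tumors of batch 2 without the antibody, had a mean of 3.83 ± 0.46 (SD), close to that of aPDL2_large. In 29 of the 35 genes both aPDL2_small tumors lay above the highest Res tumor, against 17.0% of all genes. The ratio of the aPDL2_small mean to the Res mean had a median of 1.58 over the 35 genes, against 0.984 over all genes. Tk1 had 19.5 and 19.9 FPKM in aPDL2_small and at most 14.6 FPKM in Res, and E2f7 had 1.71 and 1.49 FPKM in aPDL2_small and at most 0.785 FPKM in Res. These values cross the batches and were not tested.

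The resistant tumors of both batches, both on the inhibitor alone, were also compared. In Prog_b2 against Prog 2 genes were lower, E2f7 (-0.65 ± 0.14, adjusted p = 0.00774) and Dnmt1 (-0.52 ± 0.15, adjusted p = 0.029), against 6.06% of all genes, and none was higher, against 2.88%. E2f7 had 2.44, 2.18 and 4.03 FPKM in Prog_b2, each below the lowest Prog tumor at 4.50 FPKM. The count rose to 17 without Prog_b2 3, and it was 0 without Prog_b2 1, and 1 without Prog 1, Prog 5 or Prog_b2 2. Leaving out Prog 4 gave 4 and leaving out Prog 3 gave 3. Group and batch cannot be told apart in this comparison.

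Against the untreated tumors of batch 1, Prog_b2 had 26 of the 35 genes lower, against 10.7% of all genes. None was higher, against 8.84%, and the median log2 change was -0.66. Group and batch cannot be told apart in this comparison either. Lig1 had 9.98, 11.7 and 19.8 FPKM in Prog_b2, against 28.5, 30.7, 30.0 and 36.9 FPKM in Veh (log2 change -1.18 ± 0.19, adjusted p = 0.000578). E2f8, the 1 gene called higher in Prog, had a log2 change of 0.62 ± 0.43 here and did not pass (adjusted p = 0.314). E2f2 stood at 1.29, 0.73 and 1.00 FPKM in Prog_b2, against 1.83 to 2.64 FPKM in Veh (log2 change -0.76 ± 0.25, adjusted p = 0.04), and its call held in 4 of 15 settings, with adjusted p between 0.0308 and 0.109. The count of 26 fell to 10 without Prog_b2 1, to 12 without Prog_b2 2 and to 15 without Veh 4, and to 3 in a fit of these groups alone. It was 17 without the high-keratin libraries. Only 2 of the 26 calls, those of Lig1 and Pold1, held in all 15 settings.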

How the data were processed

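RNA of the tumors was extracted with a mirVana kit and made into unstranded poly(A) TruSeq libraries, which were sequenced as paired reads on a HiSeq instrument, per the labels' protocols. The authors deposited 1 table of FPKM per gene symbol. The submitters' processing notes name mm9, TopHat, TopHat2, Cuffnorm and Cuffdiff, with no version or role given in the sources used here. Without strand, reads of overlapping antisense genes cannot be told apart.

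To the deposited FPKM 1 was added before taking log2, and these values entered limma 3.58.1 (R 4.3.3). Each group had a term, the variance followed a trend, and tests were two-sided. Genes with a mean of at least 1 FPKM in the fit were tested, and p-values were adjusted over all of them by Benjamini and Hochberg, with calls below 0.05. The 18 tumors of batch 1 and the 7 of batch 2 were fitted apart, and comparisons across batches used all 25. The log2 scale with 1 added understates changes of genes at low FPKM. Some of the fits were run on simulated data with independent noise, with changes planted only in genes above a low level. Those runs do not cover genes near 0, variation shared by the genes of a tumor, or the difference between the batches. Tables were read with pandas 2.3.3 and numpy 2.4.6, and figures drawn with matplotlib 3.10.9.

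The members and lists were chosen with earlier results of these data known. Values of every tumor are given for the members with the most and the least negative change of Res against Veh in each role, and for further members chosen after their values were seen. Of the other pathway genes, up to 3 per list and direction with the smallest adjusted p are named; those not called are named where few, and 1 gene that this rule would name is not reported here. The alternatives were adding 0.1, testing without a filter, size factors, library weights, a replicate block, other sets of libraries and each tumor left out. The term for the columns like means was chosen after seeing the data. Replicate numbers were taken only as names of tumors. The correlations of deviations of same-numbered tumors ran from -0.52 to 0.38, which does not settle whether tumors were paired. Between Reg and Res 3 of 4 such correlations were over 0.1, and between Res and Prog 0 of 5 were.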

Additional observations from a re-analysis of the deposited data

Results flagged for a closer look

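In 144 groups of 4 or 5 tumors examined, 5 had a tumor whose distance from the nearest other tumor was large against the range of its group by Dixon's criterion, and chance flags about 1 in 20 groups. In Res, tumor 1 stood above the other 4 in Cdc6 (1.29 FPKM), Mcm10 (1.37 FPKM) and Tk1 (14.6 FPKM). In Reg, tumor 1 stood below the others in Mcm10 (4.46 FPKM). In Veh, tumor 4 stood above the others in Dnmt1 (40.4 FPKM).

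For 21 genes the contrast of resistant against residual tumors differed between the batches, as Prog against Res minus aPDL2_large against aPDL2_small, with an adjusted p below 0.05 in limma. The differences in log2 change of licensing genes were 1.10 (Orc6), 1.07 (Mcm2), 0.93 (Mcm3), 1.13 (Mcm4), 1.26 (Mcm5) and 1.19 (Mcm6). Those of helicase activation were 1.04 (Mcm10), 1.46 (Cdc45), 0.88 (Gins1) and 0.98 (Gins2), and those of the polymerase, clamp and loader genes 1.28 (Pole), 0.85 (Pcna) and 0.78 (Rfc4). Nucleotide genes differed by 1.10 (Rrm1), 2.26 (Rrm2) and 1.53 (Tk1), E2F genes by 0.73 (E2f1), 1.36 (E2f7) and 2.58 (E2f8), and methylation genes by 1.75 (Uhrf1) and 0.96 (Dnmt1).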

How the results depend on the processing

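The counts of members called were 34 in Res against Veh, 34 in Res against Reg and 35 in Prog against Res under every setting run, and 0 in Reg against Veh and in the 3 comparisons within batch 2. In Prog against Veh the count of 22 lay between 17, in a fit of all 25 libraries, and 26, with library weights. For Prog against Reg the count of 14 became 21 with library weights, 16 with the term for columns like means, 7 in a fit of all 25 libraries and 9 with the replicate block, and lay between 8 and 15 with 1 tumor left out. For Prog_b2 against Prog the count of 2 became 0 with only the compared groups in the fit, 1 with size factors and 1 with the replicate block, and lay between 0 and 17 with 1 tumor left out. For Prog_b2 against Veh the count of 26 became 3 with only the compared groups, 17 with the replicate block and 17 without the high-keratin libraries, and lay between 10 and 28 with 1 tumor left out. For the difference between the contrasts of the batches the count of 21 was 17 with the replicate block and lay between 4 and 21 with 1 tumor left out. Fewer tumors in a fit give fewer degrees of freedom, but the cause of these shifts was not tested. No member's change reversed its sign among called values. Where a group of 2 lost 1 tumor, the lone tumor was assumed to vary like the other groups. Crossing the replicate numbers of aPDL2_large and aPDL2_small, chosen after seeing the data, gave 0 calls. The depth is unknown, so no counting limit can be given for genes near 0 such as Orc1.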

Other observations

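Mki67, a marker of cycling cells outside the 35 genes, averaged 27.4 ± 1.02 FPKM in Veh, 21.7 ± 2.07 in Reg, 4.36 ± 1.42 in Res and 17.1 ± 4.28 in Prog (SD). In batch 2 it averaged 13.9 ± 1.81 FPKM in aPDL2_large, 10.1 ± 0.05 in aPDL2_small and 17.5 ± 13.9 in Prog_b2. Single tumors stood low across most of the 35 genes, Prog 3 being the lowest of the Prog tumors in 24 of them and Prog_b2 2 the lowest of its group in 27. Of the 35 genes 5 lie on chromosome 5 and 4 each on chromosomes 2, 7 and 8.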
